A study of Mus musculus with 6 samples.

Results

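The osteoclast lineage genes Acp5, Ctsk, Tnfrsf11a, Nfatc1, Dcstamp, Ocstamp, Oscar, Mitf and Calcr were examined in bone marrow-derived macrophages (BMDMs) from WT and PYK2 KO mice. The 9 genes were taken by symbol, as genes of osteoclast fusion and resorption where PYK2 is known to act. Each of them matched 1 entry of a table of 55291 genes. Of the 9, 7 had at least 1 count in some library and 5 passed the filter on low counts, which left 9815 genes of the whole table for testing.

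BMDMs were grown for 7 days from the bone marrow of C57BL/6 mice, 3 of them WT (libraries 1, 5 and 6) and 3 PYK2 KO (libraries 2, 3 and 4), with 1 library per mouse. The knockout mice lack PYK2 in the whole body, so that other marrow cells carried the mutation as well as the macrophages. All 6 cultures received the same medium, conditioned by L929 cells as a source of M-CSF, and no RANKL is named among its components. The age and sex of the mice are not given in the sources used here. RNA was counted with a bulk form of MARS-seq, in which reads come from the 3′ ends of polyadenylated transcripts, and the comparison asked which transcripts differed between macrophages with and without PYK2.

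Osteoclasts are the multinucleated cells that resorb bone, and they arise from the same myeloid precursors as macrophages. M-CSF keeps the precursors alive and leads them to display RANK, and RANKL from stromal or bone-forming cells then acts through RANK, together with signals from immunoreceptors paired to ITAM adaptors, to switch on NFATc1. NFATc1 works with MITF and PU.1 on the genes of fusion and resorption, and PYK2, a tyrosine kinase next to Src and the integrin alpha v beta 3, is known for its part in the actin rings by which mature osteoclasts attach to bone.

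The 9 genes fell into a measured group and a nearly silent group, and the libraries of either genotype showed the same grouping. The receptor RANK, the transcription factors NFATc1 and MITF and the enzymes cathepsin K and TRAP were counted in 6 of 6 libraries. The fusion proteins DC-STAMP and OC-STAMP, the receptor OSCAR and the calcitonin receptor had at most 2 counts in any library. None of the 5 tested genes passed the test between genotypes (edgeR's quasi-likelihood test, Benjamini-Hochberg adjusted p-value under 0.05), against 25 of all 9815 genes, or 0.255%. At an unadjusted p-value under 0.05, 1 of the 5 was reached, Ctsk, against 592 of 9815 genes or 6.03%. Levels are given as CPM, the counts of a gene per 1000000 TMM-scaled counts of its library, as mean ± SD with n = 3 per genotype.

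Library totals ran from 2857097 to 3917207 counts, so that 3 counts, taken as the floor, stood for 0.766 to 1.05 CPM. The targeted gene Ptk2b, on chromosome 14 from 66153257 to 66281052 (GRCm38, minus strand), fell in every knockout library, from 195 ± 5.63 CPM to 21.8 ± 1.14 CPM, a log2 fold change of -3.15 ± 0.10 (SE, adjusted p-value 1.03e-11 in edgeR). All 8 macrophage markers, among them Adgre1 and Csf1r, passed the filter, and their summed level was 29147 to 29897 CPM (WT) and 30334 to 31332 CPM (PYK2 KO), most of it Lyz2, at 24068 against 25389 CPM. The 8 fold changes had 4 positive and 4 negative values, with a median of 0.03 on the log2 scale. Of 10 stromal and osteoblast markers, 4 were at 0 in all libraries (Sp7, Alpl, Lepr and Tnfsf11, the gene of RANKL), and the list summed to 5.61 to 9.70 CPM (WT) and 6.26 to 12.8 CPM (PYK2 KO), mostly from Runx2. Neutrophil markers, 6 of 8 tested, summed to 127 to 180 CPM (WT) and 133 to 229 CPM (PYK2 KO). Of these 6, 4 had positive and 2 had negative fold changes, and 2 were higher in PYK2 KO at an unadjusted p-value under 0.05, S100a9, a calcium-binding protein of neutrophils, at 0.85 ± 0.27 and Mpo, myeloperoxidase, at 1.19 ± 0.40 (log2, SE, adjusted p-values 0.537 and 0.591 in edgeR), beside 334 higher genes among all 9815 tested, and 1 of the 8 passed in the fit without a filter. Flt3, Zbtb46, Xcr1 and Clec9a among 7 dendritic cell markers and the B cell markers Cd79a, Ms4a1 and Pax5 were at 0, while Cd79b was at 13.8 to 23.2 CPM. T cell, mast cell and erythroid markers summed to at most 2.08 CPM. None of these markers passed the test in the fit with the filter, and their part in the levels below was not tested. In a bulk library, fewer cells of a type and less RNA per cell cannot be told apart.

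**Figure D1:**
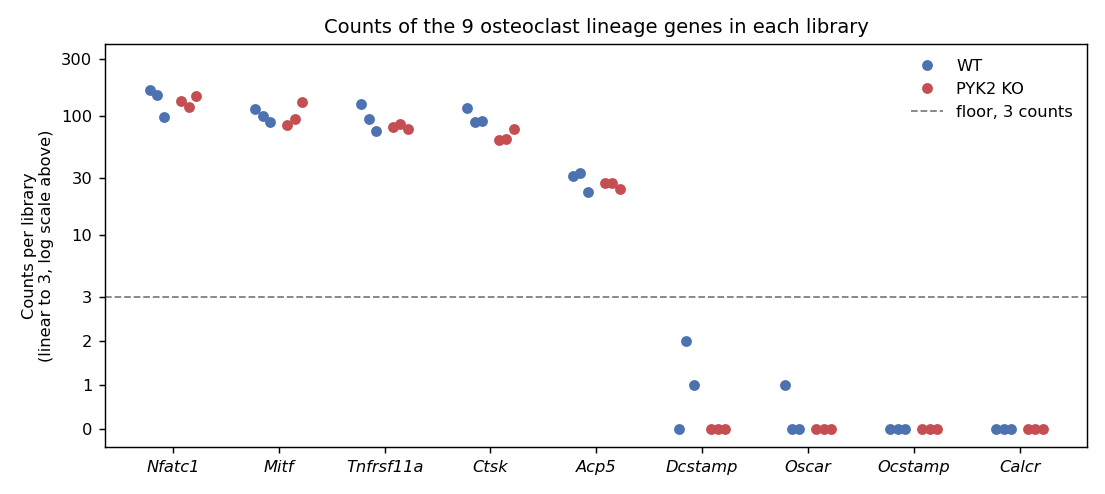
Raw counts of the 9 genes in each of the 6 libraries, on an axis that is linear up to 3 counts and logarithmic above, with WT and PYK2 KO libraries in separate colors and a line at the floor of 3 counts. Nfatc1, Mitf, Tnfrsf11a, Ctsk and Acp5 lie between 23 and 164 counts, and Dcstamp, Oscar, Ocstamp and Calcr lie between 0 and 2.

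RANK, the receptor through which RANKL acts on osteoclast precursors, is encoded by Tnfrsf11a (ENSMUSG00000026321.7 in GENCODE M21, chromosome 1 from 105780718 to 105847981, plus strand). Tnfrsf11a had 126, 94 and 75 counts in WT libraries 1, 5 and 6 and 81, 85 and 77 counts in PYK2 KO libraries 2, 3 and 4, or 32.2, 26.3 and 26.3 CPM against 26.0, 29.4 and 22.9 CPM. The highest library was WT 1 and the lowest PYK2 KO 4, and the genotypes overlapped. The means were 28.3 ± 3.39 and 26.1 ± 3.25 CPM, with a log2 fold change of -0.13 ± 0.15 (SE) and an adjusted p-value of 0.964 in edgeR. The 95% interval of the difference ran from 73.5% to 114% of the WT level. Without WT 1 the log2 fold change was -0.015, and without PYK2 KO 3 it was -0.22.

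NFATc1 is the calcineurin-dependent factor that drives the later program of the osteoclast. Its gene Nfatc1 (ENSMUSG00000033016.16, chromosome 18 from 80606205 to 80713071, minus strand) had 164, 150 and 97 counts in WT and 134, 119 and 145 counts in PYK2 KO libraries. As CPM these were 41.9, 42.0 and 34.0 in WT and 43.0, 41.2 and 43.2 in PYK2 KO, so that 1 library, WT 6, lay below the other five. The means of 39.3 ± 4.58 and 42.5 ± 1.09 CPM differed by 0.11 ± 0.12 (SE) on the log2 scale (adjusted p-value 0.960 in edgeR), and the interval ran from 89.7% to 129% of the WT level. Without WT 6 the log2 fold change was 0.02.

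MITF, a basic helix-loop-helix leucine zipper factor that acts on the Acp5 and Ctsk promoters in osteoclasts, was at a similar level. Its gene Mitf (ENSMUSG00000035158.15, chromosome 6 from 97807052 to 98021349, plus strand) had 113, 100 and 89 counts in WT and 84, 93 and 129 counts in PYK2 KO libraries, or 28.9, 28.0 and 31.2 CPM against 26.9, 32.2 and 38.4 CPM. Both the lowest and the highest library were PYK2 KO libraries. The means of 29.3 ± 1.66 and 32.5 ± 5.76 CPM gave a log2 fold change of 0.16 ± 0.15 (SE, adjusted p-value 0.944 in edgeR), which was 0.01 without PYK2 KO 4 and 0.27 without PYK2 KO 2.

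Cathepsin K, the cysteine protease with which osteoclasts cleave type I collagen, was the exception in how the libraries were ordered. Ctsk (ENSMUSG00000028111.4, chromosome 3 from 95499256 to 95509362, plus strand) had 115, 88 and 90 counts in WT and 62, 64 and 77 counts in PYK2 KO libraries, or 29.4, 24.6 and 31.5 CPM against 19.9, 22.2 and 22.9 CPM. All 3 PYK2 KO libraries lay below all 3 WT libraries, the nearest pair being WT 5 and PYK2 KO 4. Such an order was found for 498 of the 9815 tested genes, or 5.07%, and for 1 of the 5 tested osteoclast genes. The means were 28.5 ± 3.53 CPM (WT) and 21.7 ± 1.59 CPM (PYK2 KO), which put the knockout at 76.0% of WT. On the log2 scale the difference was -0.39 ± 0.15 (SE), with an unadjusted p-value of 0.0194 and an adjusted p-value of 0.674 in edgeR. The 95% interval was -0.71 to -0.07 on the log2 scale, or 61.3% to 95.1% of WT. The exact permutation test gave p = 0.1 (two-sided), the smallest that 3 libraries against 3 allow. Ctsk was 280th of the tested genes when ranked by p-value. DESeq2 gave the same size, -0.39 ± 0.21 (SE), with an unadjusted p-value of 0.0647.

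TRAP, the tartrate-resistant acid phosphatase used to stain osteoclasts, was the lowest of the measured genes and the closest between genotypes. Acp5 (ENSMUSG00000001348.15, chromosome 9 from 22126727 to 22135711, minus strand) had 31, 33 and 23 counts in WT and 27, 27 and 24 counts in PYK2 KO libraries. The levels were 7.92, 9.24 and 8.06 CPM against 8.66, 9.35 and 7.15 CPM, and both the lowest and the highest library were PYK2 KO. The means of 8.41 ± 0.724 and 8.39 ± 1.12 CPM gave a log2 fold change of -0.01 ± 0.23 (SE, adjusted p-value 0.999 in edgeR). At this depth the 95% interval still ran from 70.9% to 139% of WT, which holds the 76.0% found for Ctsk. Acp5 shares 137 exonic bases with 6530413G14Rik on the opposite strand, which had 2 counts over all 6 libraries.

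**Figure D2:**
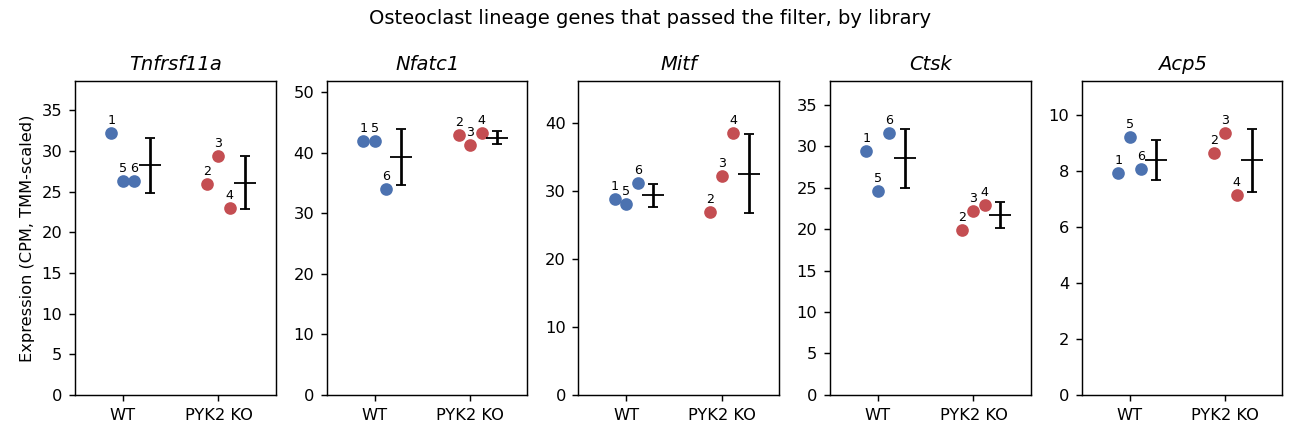
CPM of the 5 tested genes in each library, with WT and PYK2 KO libraries in separate colors, library numbers above the points, short bars at the genotype means and error bars of 1 SD (n = 3 mice per genotype). The genotypes overlap for Nfatc1, Mitf, Tnfrsf11a and Acp5, and the 3 PYK2 KO libraries of Ctsk, at 19.9 to 22.9 CPM, lie below the 3 WT libraries at 24.6 to 31.5 CPM.

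The fusion genes Dcstamp and Ocstamp were at or below the floor. DC-STAMP, the membrane protein required for the fusion of osteoclast precursors, is encoded by Dcstamp (ENSMUSG00000022303.9, chromosome 15 from 39745930 to 39760938, plus strand), which had 0, 2 and 1 counts in WT libraries 1, 5 and 6 and 0 in each of the PYK2 KO libraries. The WT sum of 3 counts has an exact Poisson 95% interval of 0.619 to 8.77 counts. The PYK2 KO sum was 0. Its partner in fusion Ocstamp (ENSMUSG00000027670.4, chromosome 2 from 165393760 to 165400405, minus strand) was at 0 in all 6 libraries.

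The remaining receptors were as low. OSCAR, an immunoglobulin-like receptor that binds collagen and signals through the Fc receptor gamma chain, is encoded by Oscar (ENSMUSG00000054594.13, chromosome 7 from 3609813 to 3616157, minus strand) and had 1 count, in WT library 1. The exact Poisson interval of that WT sum is 0.0253 to 5.57 counts. Calcr (ENSMUSG00000023964.15, chromosome 6 from 3685680 to 3764714, minus strand), the receptor by which calcitonin stops resorption in mature osteoclasts, was at 0 in all 6 libraries. A sum of 0 over the 6 libraries allows up to 3 counts, or 0.152 CPM, and over the 3 libraries of a genotype up to 0.290 (WT) and 0.321 CPM (PYK2 KO). The limit of 3 counts is one-sided at 95%, unlike the two-sided Poisson intervals above, and both cover counting error alone. With both genotypes at or under the floor no fold change is given for the 4 genes. In the fit without a filter, Dcstamp had an unadjusted p-value of 0.125 and Oscar of 0.394 (adjusted p-value 0.841 for both in edgeR).

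Summed over the 9 genes, the libraries held 140.5, 130.7 and 131.4 CPM (WT 1, 5 and 6) and 124.5, 134.4 and 134.7 CPM (PYK2 KO 2, 3 and 4). The lowest sum was that of PYK2 KO 2 and the highest that of WT 1, and the genotypes overlapped. The 4 genes under the filter added at most 0.560 CPM to any library.

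**Figure D3:**
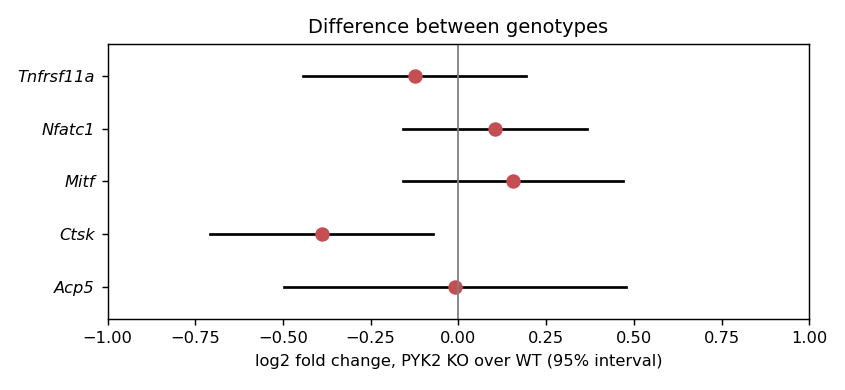
Log2 fold change of the 5 tested genes, PYK2 KO over WT, as points with bars for the 95% interval from edgeR, and a vertical line at 0. The interval of Ctsk, -0.71 to -0.07, lies below 0, and those of Tnfrsf11a, Nfatc1, Mitf and Acp5 hold 0.

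Among themselves the 5 measured genes covered a narrow range of levels. By mean CPM over the 6 libraries the order was Nfatc1 at 40.9, Mitf at 30.9, Tnfrsf11a at 27.2, Ctsk at 25.1 and Acp5 at 8.40 CPM. Nfatc1 was above Mitf in 6 of 6 libraries, Mitf above Tnfrsf11a in 5 and Tnfrsf11a above Ctsk in 4, and in each of these neighboring pairs the ranges over libraries overlapped. Ctsk stood apart from Acp5, since its lowest library at 19.9 CPM was above the highest of Acp5 at 9.35 CPM, a ratio of means of 2.99. Among all tested genes Nfatc1 was at the 57.9th percentile of mean level, Mitf at 49.9, Tnfrsf11a at 46.3, Ctsk at 43.8 and Acp5 at 16.9.

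Counts of 3′ tags do not scale with transcript length as counts of whole transcripts do. Dividing them by exon length favors short genes, so the order by CPM is the main one. The order changed under this division, with 1512 exonic bases in Ctsk and 7469 in Nfatc1. Per kilobase of exon, Ctsk came first at 16.6 CPM, followed by Nfatc1 at 5.47, Mitf at 4.99, Tnfrsf11a at 4.54 and Acp5 at 4.14 CPM. Ctsk thus moved from the 4th to the 1st place, the next 3 genes moved down by 1 place each and Acp5 stayed in the 5th.

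The spread over libraries differed among the 5 genes. The coefficient of variation (CV) over the 6 libraries of both genotypes was 8.45% for Nfatc1 and 10.1% for Acp5, where a Poisson spread at their mean counts of 135 and 27.5 is 8.61% and 19.1%. Tnfrsf11a was at 11.7% against 10.6% and Mitf at 13.5% against 9.93%. Ctsk had the widest spread of the 5, a CV of 17.9% against 11.0%. The Poisson value takes each count as an independent molecule, and the CV includes the difference between genotypes.

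The promoters of the members are shown for Ctsk, where the genotypes did not overlap, for Acp5 and Tnfrsf11a as a second resorption gene and the receptor that were measured, and for Oscar as a gene at the floor. Each line gives the 250 bases before a RefSeq transcription start (GRCm38.p6), read 5′ to 3′ along the gene's strand, with capitals for matches on either strand of 4 short motifs. The motifs were CACGTG and CATGTG, E-boxes of the kind read by MITF, GGAAA, the core read by NFAT factors, and GAGGAA, the core read by PU.1, of which the last pair can overlap in GAGGAAA. The Ctsk window is chr3:95498960-95499209 (plus strand), that of Acp5, before the third of its 3 starts in the table, is chr9:22130599-22130848 (minus strand), that of Tnfrsf11a is chr1:105780473-105780722 (plus strand) and that of Oscar is chr7:3616158-3616407 (minus strand).
Ctsk: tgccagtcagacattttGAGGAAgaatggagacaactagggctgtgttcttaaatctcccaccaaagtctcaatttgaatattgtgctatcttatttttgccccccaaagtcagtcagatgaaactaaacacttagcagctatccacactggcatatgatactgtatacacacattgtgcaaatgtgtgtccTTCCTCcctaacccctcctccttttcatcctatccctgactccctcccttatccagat
Acp5: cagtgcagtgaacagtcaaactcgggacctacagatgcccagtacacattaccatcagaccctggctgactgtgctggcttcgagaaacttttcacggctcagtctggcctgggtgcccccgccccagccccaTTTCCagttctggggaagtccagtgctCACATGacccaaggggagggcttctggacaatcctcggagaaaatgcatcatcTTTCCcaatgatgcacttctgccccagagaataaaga
Tnfrsf11a: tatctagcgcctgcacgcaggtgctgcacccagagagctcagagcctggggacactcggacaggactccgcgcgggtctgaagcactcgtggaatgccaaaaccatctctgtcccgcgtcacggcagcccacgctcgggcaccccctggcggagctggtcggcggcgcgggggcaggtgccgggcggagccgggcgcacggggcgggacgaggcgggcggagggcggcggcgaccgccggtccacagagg
Oscar: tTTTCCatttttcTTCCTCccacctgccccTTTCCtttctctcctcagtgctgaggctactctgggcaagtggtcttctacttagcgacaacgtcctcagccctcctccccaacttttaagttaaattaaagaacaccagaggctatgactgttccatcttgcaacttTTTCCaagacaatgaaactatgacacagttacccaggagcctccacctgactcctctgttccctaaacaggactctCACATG

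In the set of RefSeq starts used here, entries were matched for 6 of the 9 genes, with 11 windows in all. Nfatc1, Dcstamp and Ocstamp had no entry in this set, though all 9 have a GENCODE gene. Positions count back from the base before the start, which is -1, and give the first base of a match along the gene. The Ctsk window held GAGGAA at -233 and -58 and none of the other motifs. The Acp5 window shown held CATGTG at -90 and GGAAA at -117 and -37. The Tnfrsf11a window held none of the 4 motifs, and that of Oscar held CATGTG at -6, GGAAA at -249, -220 and -82 and GAGGAA at -237. Over the 11 windows, CACGTG was found in 0, CATGTG in 2, GGAAA in 7 and GAGGAA in 2. Of 32851 promoter windows of the same length in the table, 6.02% held CACGTG, 12.25% CATGTG, 55.57% GGAAA and 23.25% GAGGAA. A match is a match of letters only, and both the measured gene Acp5 and Oscar at the floor held CATGTG. For Acp5 it was found in the window shown alone, whose start lies 5113 bases from the gene start in GENCODE. The other Acp5 windows, with starts 35 and 3846 bases from the gene start, held GGAAA but not CATGTG.

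Ctsk, Mitf and Nfatc1 belong to families whose other members were also counted. Macrophages carry a set of papain-like cathepsins that break down protein in lysosomes, and Ctsk was a small part of it. Over the 6 libraries Ctss was at 2703 CPM, Ctsz at 1631, Ctsl at 842, Ctsb at 608, Ctsh at 222 and Ctsc at 168 CPM, and Ctsk, at 25.1 CPM, was 7th of 10, also per kilobase of exon. Ctsk made up 0.469%, 0.395% and 0.496% of the family's CPM in WT libraries 1, 5 and 6 and 0.326%, 0.362% and 0.373% in PYK2 KO libraries 2, 3 and 4. The PYK2 KO shares lay below the WT shares, which repeats the order of the Ctsk counts and is no second result. The paralogs summed to 6218 to 6333 CPM (WT) and 6085 to 6130 CPM (PYK2 KO). None of the 7 tested paralogs passed the test, and the 2 with the smallest p-values, Ctsc and Ctsb, had log2 fold changes of 0.13 ± 0.10 and 0.10 ± 0.09 (SE, adjusted p-values 0.935 and 0.937 in edgeR). The longest stretch that a Ctsk transcript shares with these paralogs is 17 bases.

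Within the MITF family, whose members bind the same E-boxes and can pair with each other, Tfe3 was at 141 CPM, Tfeb at 61.9, Mitf at 30.9 and Tfec at 14.3 CPM, an order that was the same per kilobase of exon. Mitf was 10.9% to 14.5% of the family's CPM. Tfe3, at 133 ± 3.59 against 148 ± 2.98 CPM in the knockout, did not pass the test (log2 fold change 0.15 ± 0.08, adjusted p-value 0.882 in edgeR). Among the NFAT factors, Nfatc3 was at 57.5 CPM, Nfatc1 at 40.9, Nfatc2 at 39.9 and Nfat5 at 9.29 CPM, while Nfatc4 had 1 count in all. Nfatc1 was 22.4% to 30.7% of that family. Per kilobase of exon Nfatc1 came first of it, but this measure favors short genes. Nfatc1 has 7.47 kb of exon and Nfatc3 11.7 kb. Nfatc2 had a log2 fold change of -0.21 ± 0.13 and Nfat5 of -0.09 ± 0.24 (SE, adjusted p-values 0.912 and 0.993 in edgeR).

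**Figure D4:**
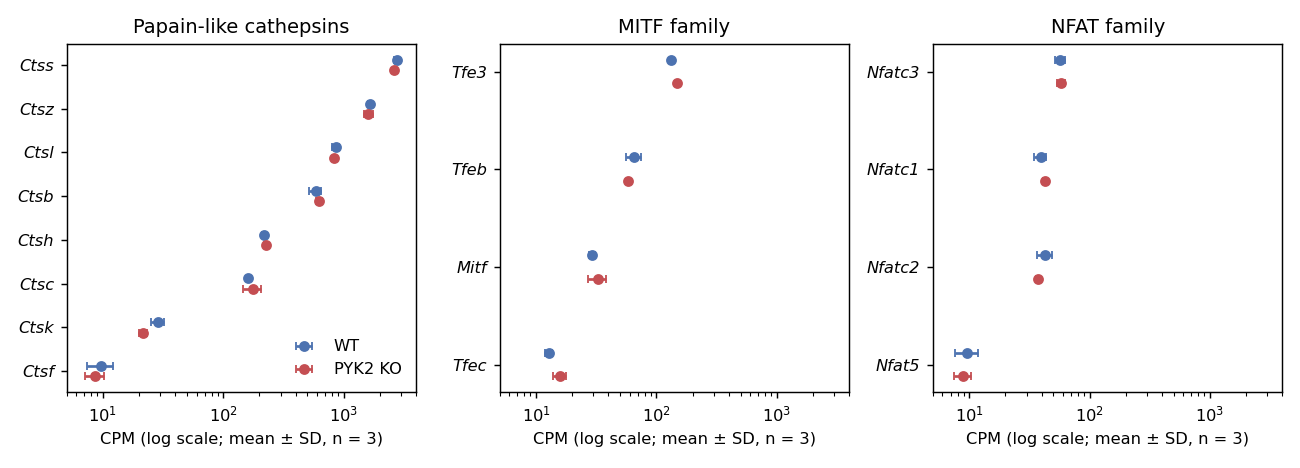
CPM of Ctsk, Mitf and Nfatc1 and of their paralogs that passed the filter, on a logarithmic axis, as points for the means of WT and PYK2 KO BMDMs with bars of 1 SD (n = 3 mice per genotype). Ctsk, at 28.5 and 21.7 CPM in the respective genotypes, lies below 6 of its paralogs, Mitf lies below Tfe3 and Tfeb, and Nfatc1 lies next to Nfatc2.

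The other genes of the osteoclast pathway were read from lists of its steps. In the RANK signaling list (22 genes), Tnfsf11 and Tnfrsf11b, the genes of RANKL and of its decoy receptor osteoprotegerin, were at 0 in all libraries. Of its 19 tested genes 0 passed the test and 0 had an unadjusted p-value under 0.05, with log2 fold changes between -0.21 and 0.26 and a median of 0.03, beside 0.00 for all tested genes. Its genes with the smallest p-values were Nfkb2, an NF-kB subunit of the noncanonical branch, at -0.18 ± 0.09, and Ikbkb, a kinase of the inhibitor of NF-kB, at -0.21 ± 0.11 (log2, SE, adjusted p-values 0.862 and 0.880 in edgeR).

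ITAM costimulation, which supplies the calcium signal for NFATc1, was well represented. Its adaptor gene Tyrobp, the product of which is DAP12, was at 2609 CPM, and Trem2, a receptor that uses it, at 1811 CPM. Of 13 genes 12 were tested, 0 passed the test and 0 had an unadjusted p-value under 0.05, and Camk4 was at 0. The log2 fold changes ran from -0.14 to 0.14 with a median of 0.04. Ppp3ca, a catalytic subunit of calcineurin, was at 0.11 ± 0.08 and Plcg2, the phospholipase upstream of the calcium release, at 0.11 ± 0.09 (log2, SE, adjusted p-values 0.933 and 0.935 in edgeR).

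Of 13 further osteoclast transcription factors, 12 were tested and 0 passed the test, their median log2 fold change being -0.09, within a range of -1.29 to 0.73. At an unadjusted p-value under 0.05 there were 3, Fos, Myc and Creb1, beside 6.03% of all tested genes. Fos, the AP-1 subunit without which osteoclasts do not form, had 84, 95 and 293 counts in WT libraries 1, 5 and 6 and 42, 95 and 46 counts in PYK2 KO libraries 2, 3 and 4. WT 6 stood far above the other five libraries, and the genotypes overlapped. The log2 fold change of -1.29 ± 0.48 (SE, adjusted p-value 0.661 in edgeR) was -0.28 without WT 6 (adjusted p-value 0.903). Fos passed the test in the fit without a filter (adjusted p-value 1.81e-14), the only such call among the settings tried for it. Its SE in that fit was 0.15, against 0.48 with the filter, although the WT counts ran from 84 to 293. That p-value therefore understates the spread between mice. Myc, a factor of precursor growth, was at -0.39 ± 0.17 (log2, SE, adjusted p-value 0.783 in edgeR), and at -0.25 both without WT 6 and without PYK2 KO 4 (unadjusted p-values 0.171 and 0.166 in edgeR). The unadjusted p-value of Myc was also above 0.05 without PYK2 KO 2 (0.0773 in edgeR) and with DESeq2 (0.0600). Creb1, a factor activated by calcium signaling, had 12, 13 and 5 counts in WT and 15 in each of the PYK2 KO libraries, a log2 fold change of 0.73 ± 0.34 (SE, adjusted p-value 0.823 in edgeR). Its unadjusted p-value of 0.0475 rose above the threshold in 5 of 6 fits that left out a library, the exception being WT 5. The same held with DESeq2 (0.148) and in the edgeR fit without a filter (0.0563). Spi1, the gene of PU.1, was at 374 CPM.

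Of 6 repressors of osteoclast formation, 5 were tested and 0 passed the test and 0 had an unadjusted p-value under 0.05, with a median of -0.09. Id1, an inhibitor of helix-loop-helix factors, had 15, 22 and 49 counts in WT and 13, 16 and 13 counts in PYK2 KO libraries, again with WT 6 above the rest. Its log2 fold change of -0.93 ± 0.45 (SE, adjusted p-value 0.853 in edgeR) was -0.14 without WT 6. Id2 was at -0.17 ± 0.10 (log2, SE, adjusted p-value 0.896). Irf8, which holds precursors in the macrophage state, was at 278 CPM with a log2 fold change of 0.00.

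Fusion proteins other than DC-STAMP and OC-STAMP were measured in these macrophages. Of 11 such genes 10 were tested, 0 passed the test and 0 had an unadjusted p-value under 0.05, with a median of -0.05 and a range of -0.21 to 0.07. Sirpa and Cd9, surface proteins that take part in macrophage fusion, were at -0.11 ± 0.09 and 0.07 ± 0.08 (log2, SE, adjusted p-values 0.935 and 0.964 in edgeR). Atp6v0d2, the proton pump subunit needed for fusion and an NFATc1 target, had 37, 29 and 19 counts in WT and 15, 21 and 30 counts in PYK2 KO libraries. These overlapped, with a log2 fold change of -0.21 ± 0.27 (SE, adjusted p-value 0.964).

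Acid secretion and matrix breakdown were covered by 14 genes, 13 of them tested, with a median of -0.02 and a range of -0.14 to 0.14. None passed the test and 0 had an unadjusted p-value under 0.05. Car2, the carbonic anhydrase that supplies protons in osteoclasts, was at 0 in all libraries, while Tcirg1, the proton pump subunit of the ruffled border and of lysosomes, was at 546 CPM and Mmp9, a gelatinase, at 4.34 CPM. The genes with the smallest p-values were Atp6ap1 and Atp6v1a, both of the proton pump, at 0.14 ± 0.08 and -0.13 ± 0.08 (log2, SE, adjusted p-values 0.896 and 0.912 in edgeR).

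Attachment and the sealing zone, the step at which PYK2 itself is placed, was read from 18 genes other than Ptk2b. Of 17 tested, 0 passed the test and 3 had an unadjusted p-value under 0.05, namely Ptk2, Cdc42 and Src, beside 6.03% of all tested genes. Ptk2, the gene of FAK, the kinase most like PYK2, had 38, 33 and 35 counts in WT and 16, 19 and 18 counts in PYK2 KO libraries. The genotypes did not overlap, and the log2 fold change was -0.86 ± 0.24 (SE), with an unadjusted p-value of 0.00298 and an adjusted p-value of 0.401 in edgeR. Src, the kinase that works with PYK2 in the actin ring, had 20, 20 and 12 counts in WT and 10, 10 and 8 in PYK2 KO libraries (log2 fold change -0.74 ± 0.32, adjusted p-value 0.783), and its unadjusted p-value rose above 0.05 with DESeq2 (0.148) and in 4 of 6 fits that left out a library. Cdc42, a GTPase of actin assembly, was at 0.28 ± 0.11 (adjusted p-value 0.724 in edgeR) and ran from 0.16 without PYK2 KO 4 to 0.39 without PYK2 KO 2, with an unadjusted p-value above 0.05 in 4 of 6 such fits. Itgb3, the beta 3 chain of the osteoclast integrin, was at 57.9 CPM with a log2 fold change of -0.19 ± 0.11 (adjusted p-value 0.896). The median of the list was -0.02.

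**Figure D5:**
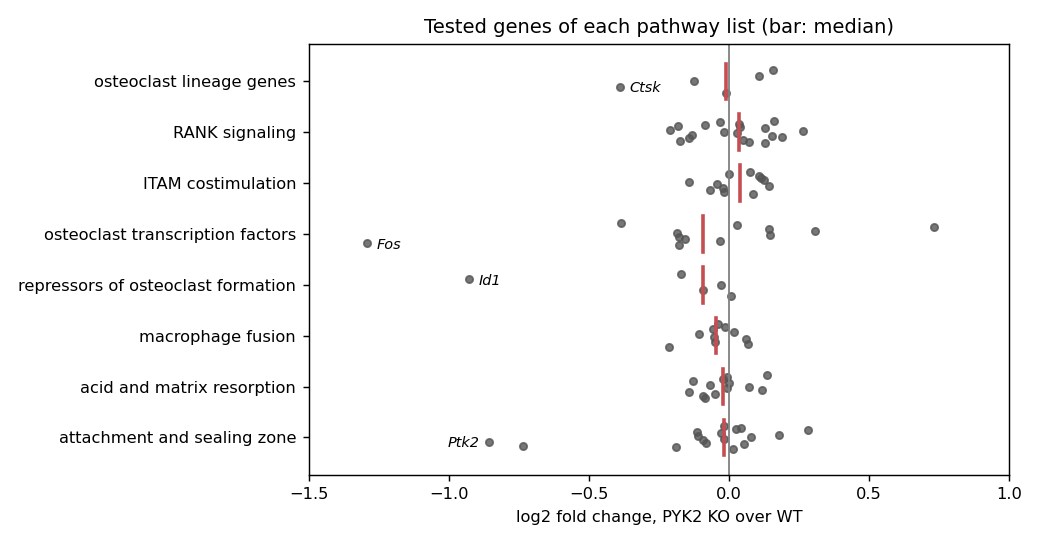
Log2 fold changes, PYK2 KO over WT, of the tested genes of each pathway list and of the osteoclast genes, 1 point per gene, with a short bar at each list's median and a line at 0. The medians of the 7 pathway lists lie between -0.09 and 0.04, and Fos at -1.29, Id1 at -0.93, Ptk2 at -0.86 and Src at -0.74 lie lowest.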

How the data were processed

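The deposited values were raw counts of reads per gene that the authors made from bulk MARS-seq libraries with UTAP. The submitters' processing notes name cutadapt, STAR and mm10. Versions, the annotation, the strand setting and the treatment of molecular identifiers are not given in the sources used here. Column names gave the genotype and a replicate number for all 6 columns, and 0 columns belonged to other samples. Totals of 2857097 to 3917207 counts limit the precision of genes with few counts.

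Differences between genotypes were computed with edgeR 4.0.16 in R 4.3.3 (filterByExpr with a minimum count of 10, TMM, quasi-likelihood F test, Benjamini-Hochberg adjustment over all genes tested) on genotype alone, and the fit was tested on simulated data. The SE is the log2 fold change over the root of F, and CPM used the TMM-scaled counts in tested genes. Members and lists were chosen with earlier results of these data known. The text names all members, Ptk2b, in each list the genes past the threshold and the 2 with the smallest p-values, paralogs, markers at 0 and, for each tested member, the 3 genes most like it. Other named genes (Src, Creb1, Itgb3, Atp6v0d2, Car2, Camk4, Tnfrsf11b, Mmp9, Tcirg1, S100a9, Mpo, Lyz2, Tyrobp, Trem2, Spi1, Irf8, Adgre1, Csf1r, Runx2 and Cd79b) were chosen after their values were seen. Alternatives were DESeq2 1.42.0, limma 3.58.1 (voom), a likelihood ratio test, other scalings, other filters and leaving out each library. Positions came from GENCODE M21 (GRCm38).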

Additional observations from a re-analysis of the deposited data

How the results depend on the processing

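The number of osteoclast genes past the threshold was 0 under all 14 alternatives, and the log2 fold changes of Ctsk, Tnfrsf11a, Nfatc1, Mitf and Ptk2b kept their direction in each of them. Ctsk ran from -0.49 to -0.32 when 1 library was left out (adjusted p-values 0.753 to 1.00 in edgeR) and from -0.40 to -0.38 under the other settings. Its unadjusted p-value rose above 0.05 with DESeq2 (0.0647), without WT 6 (0.0693) and without PYK2 KO 2 (0.0687). Acp5, at -0.01, turned to 0.065 without WT 5 and to 0.097 without PYK2 KO 4, in a leave-one-out range of -0.093 (without PYK2 KO 3) to 0.097, and the cause was not tested. The number of all genes differing between genotypes was 25, against 45 with the likelihood ratio test and 159 without a filter, and 14 (without PYK2 KO 4) to 34 (without WT 1) when 1 library was left out. It was 15 without WT 5 and 15 without PYK2 KO 2. With fewer samples in these fits, 12 of the 25 genes were shared without PYK2 KO 4. The other settings gave 20 to 25 genes. In the fit without a filter the SE of Fos was 0.15 against 0.48 with it, so p-values there can understate the spread between mice. The settings for Fos, Id1, Myc, Ptk2, Cdc42, Src and Creb1 were chosen after their values were seen, and without WT 6 Ptk2 was at -0.74. No paired analysis was possible because no replicate number occurs in both genotypes.

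Depth limits the result for the 4 genes at the floor, where at most 3 counts stood behind a genotype, and for Acp5, with a mean of 27.5 counts per library. With 3 mice per genotype, p-values of the edgeR fit with the filter measure the spread between 3 cultures, each from 1 mouse.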

Other observations

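The genes whose levels ran most like those of each measured osteoclast gene over the 6 libraries were taken by Pearson's r of log2 CPM among 9814 other genes, as a description with no test, since the points share their libraries and so many genes were searched. Nfatc1 ran most like Ubn1 (r = 0.986), Tmem70 (0.984) and Parp2 (0.981). Mitf ran most like Mrpl42 (0.992), Rbm39 (0.991) and Casd1 (0.989). Tnfrsf11a was closest to E2f6 (0.990), Safb (0.982) and Nub1 (0.980). Ctsk was closest to Gtf3c5 (0.985), Clba1 (0.984) and Yrdc (0.984), and Acp5 to Mta2 (0.990), Zmym3 (0.983) and Dpp3 (0.977). No osteoclast gene was among the 3 genes most like another.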
